A study of Danio rerio with 26 samples.

Results

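The medial neurogenic zone and the dorsal subventricular zone (SVZ) of the unlesioned zebrafish telencephalon were compared gene by gene, with 2 microarrays of the medial zone set against 3 of the dorsal SVZ. The arrays were taken by their labels, no lesion in either zone, and make up 5 of the 26 arrays of the study. All fish carried the gfap:gfp transgene of the Tg(gfap:gfp)mi2001 line, in which the gfap promoter, active in radial glia, drives green fluorescent protein, and all were 3 to 6 months old. The study also sampled the dorsal parenchyma, the tissue beneath the dorsal ventricular layer, and collected each region without a lesion and at 2 and 7 days after injury. The series design calls the injury a stab wound, whereas the treatment text describes a microinjection into the ventricle. The medial zone is known from the sample labels alone, since the design mentions only the other 2 regions. Each array is labelled a biological replicate. The number of fish behind an array is not given, so the spread between arrays may be partly technical. The p-values measure the spread within groups, pooled over all 26 arrays in 9 groups and not over these 5 alone.

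Teleost brains keep dividing radial glia along the ventricles throughout life. These cells line the ventricle with their cell bodies and give rise to neurons in the tissue below. Because the fish telencephalon is everted, its dorsal ventricular surface covers the pallium, where glutamatergic neurons predominate, and its medial ventricular wall extends over the subpallium, where dlx-expressing progenitors give rise to GABAergic neurons.

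Levels are log2 intensities, in which 1 unit is a doubling, for 19260 genes, each read from 1 probe set. The median of the whole table was 3.09, and a level under it was not shown to be above background. Where the lower zone's mean lay under that median, which was so for 48 genes called higher in the medial zone and 54 called higher in the dorsal SVZ, the fold is not exact. The 2 unlesioned medial arrays correlated at r = 0.96 and differed by more than 1 log2 unit at 722 genes. Among the 3 unlesioned dorsal SVZ arrays, r was 0.97 for each pair and the number of such genes between 282 and 406. Between the zones, r was 0.92 to 0.94. With so few arrays, their number set the precision. Within the medial pair, replicate 1 was the higher array at 326 of the 456 genes called higher in the medial zone below, against 9991 of all 19260.

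One array stood apart. In the unlesioned dorsal SVZ, replicate 2 was more than 2 log2 units above both other arrays at 39 genes, against 7 genes for replicate 1 and 0 for replicate 3. The pineal opsin gene exorh was at 4.49, 10.5 and 3.69 in replicates 1, 2 and 3, the melatonin enzyme gene aanat2 at 3.04, 8.04 and 2.93, and the photoreceptor gene crx at 3.04, 6.04 and 2.89. Of 13 measured genes of the pineal organ, a light-sensing gland above the telencephalon, 6 were among the 39. Replicate 2 of the dorsal SVZ at day 7 had 26 genes above both other arrays of its group, of which 25 were the same genes, and exorh was at 10.0 there. None of the 13 pineal genes was called different between the zones. Of the 39 genes, 1 was called higher in the dorsal SVZ, an unnamed locus. The values below are given for all arrays. The total count, and the counts of some lists, are also given without this array.

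Of the 19260 genes, 800 (4.15%) differed between the unlesioned zones at an adjusted p under 0.05 (limma, Benjamini-Hochberg), 456 higher in the medial zone (2.37%) and 344 higher in the dorsal SVZ (1.79%). The median size of the called differences was 1.35 on the log2 scale for the former and 1.36 for the latter. Differences of at least 3 units, 8 times or more in intensity, were found for 39 medial-zone genes and 21 dorsal SVZ genes. The arrays of the 2 zones did not overlap at 797 of the 800, against 32.2% of all genes. At an unadjusted p under 0.05 there were 2760 genes. Without the dorsal SVZ array that held pineal genes, 531 genes were called, 279 and 252. All 800 kept their direction, but for the 797 without overlap leaving out an array could not change it. Leaving out medial replicate 1 lowered the count to 419 (218 higher in the medial zone and 201 in the dorsal SVZ), and leaving out medial replicate 2 lowered it to 524 (336 and 188). Calls made without any of the 5 arrays in turn numbered 233. With the spread taken from the 5 compared arrays alone, 632 genes were called, 355 higher in the medial zone and 277 in the dorsal SVZ. Tissue was measured in bulk, and fewer cells of a type and less RNA per cell cannot be told apart.

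The 15 largest dorsal SVZ differences were taken from called genes without overlap, leaving out clone names. They were led by cndp1, the gene of a dipeptidase that cleaves carnosine. Its level was 10.7, 10.1 and 10.3 in the dorsal SVZ arrays and 3.29 and 5.36 in the medial arrays, a 65.2-fold difference (log2 difference -6.03 ± 0.39 SE, adjusted p = 8.64e-10). The sulfate transporter gene slc13a1 was at 10.0, 9.76 and 9.24 in the dorsal SVZ and at 2.64 and 5.02 in the medial zone (57.2-fold, adjusted p = 3.98e-09). In both genes the zones were far apart, and medial replicate 2 lay about 2 units above replicate 1.

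The fatty acid binding protein gene fabp7b showed the same arrangement, with 10.5, 10.2 and 10.1 in the dorsal SVZ and 3.36 and 5.66 in the medial zone (53.6-fold, adjusted p = 2.89e-08). Its second probe set gave a log2 difference of -5.36. Its paralogue fabp7a, a standard marker of radial glia, was at 11.5, 11.5 and 11.3 in the dorsal SVZ and at 11.4 and 11.2 in the medial zone (log2 difference -0.13 ± 0.23 SE, adjusted p = 0.893). The 2 copies of one gene thus gave the third largest dorsal SVZ difference among the named genes and a difference smaller than its standard error.

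Other genes among the 15 followed. The transmembrane protein genes tmem72 (21.8-fold, adjusted p = 7.19e-13) and tmem98 (17.2-fold, adjusted p = 1.93e-11) had medial means of 2.85 and 2.93, under the table median. The insulin-like growth factor binding protein gene igfbp2a was 20.4-fold higher, the collectin gene colec12 10.8-fold and the anion exchanger gene slc4a2b 10.7-fold. The chemokine gene ccl25b was at 9.0, 9.59 and 8.80 against 4.56 and 5.63 (16.4-fold, adjusted p = 0.00223), and its call was lost without medial replicate 1 (adjusted p = 0.0713). The gene hsd11b2, whose enzyme inactivates cortisol, was at 8.25, 6.67 and 6.4 in the dorsal SVZ and at 3.07 and 4.75 in the medial zone (9.17-fold, adjusted p = 1.13e-04), so that dorsal replicate 1 lay above the other two.

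**Figure D1:**
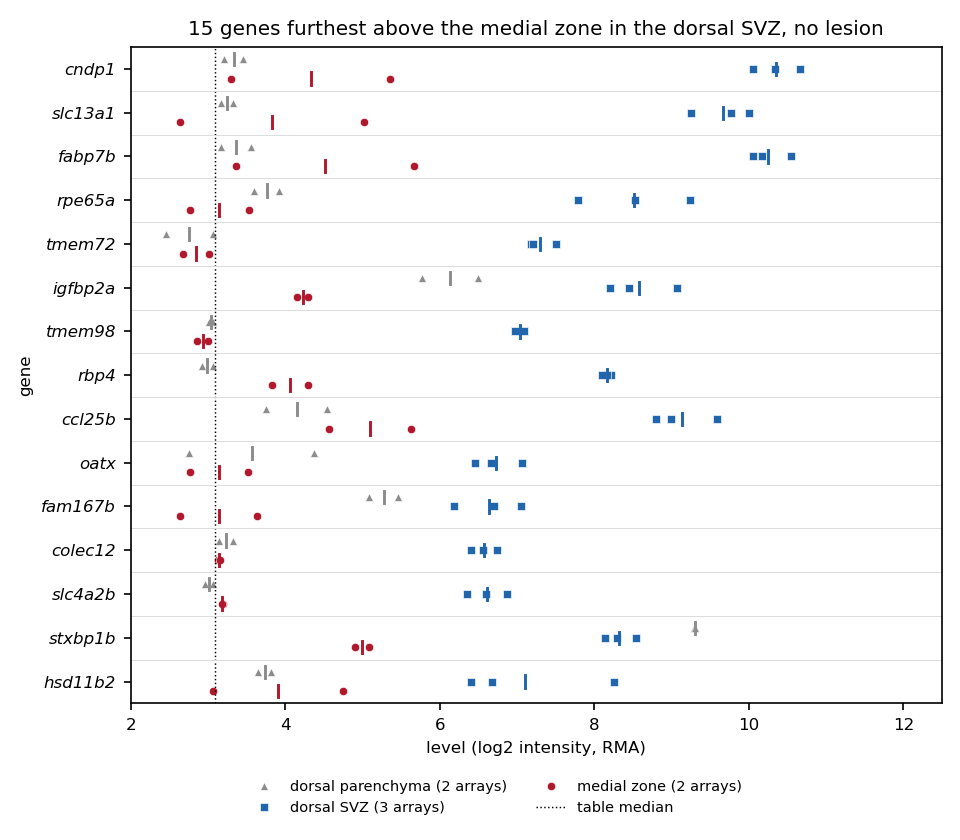
Level of the 15 named genes furthest above the medial zone in the dorsal SVZ, on the log2 intensity scale. Each unlesioned array of the dorsal parenchyma, dorsal SVZ and medial zone is shown, with short bars at group means and a dotted line at the table median of 3.09. The 15 were taken from genes whose zones do not overlap. The parenchyma lies near the medial zone for most of them but at 9.30 for stxbp1b.

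Many of these genes were low in the dorsal parenchyma too, with cndp1 at 3.46 and 3.21. igfbp2a was at 5.77 and 6.5 there, between the zones. The gene stxbp1b, which encodes a syntaxin binding protein of synaptic vesicle release, was at 8.13, 8.29 and 8.54 in the dorsal SVZ and 5.08 and 4.90 in the medial zone (10.1-fold, adjusted p = 1.86e-08), while both parenchyma arrays stood at 9.29 and 9.31.

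Retinoid genes differed in one direction among those called. Of 45 measured genes of retinoid uptake, synthesis and reception, 5 were higher in the dorsal SVZ and 0 in the medial zone. The called share was 11.1%, against 4.15% of all genes. The other 40 did not pass, and the list's median log2 difference was -0.20, against 0.02 over all genes. That median ranged from -0.29 to -0.10 with 1 array left out. Of the 40, rbp4l, rdh5, lrata and dgat2 were among the genes that set the array with pineal genes apart. The isomerohydrolase gene rpe65a, known from the visual cycle of the retina, was at 7.79, 9.24 and 8.53 in the dorsal SVZ and at 2.77 and 3.53 in the medial zone (41.5-fold, adjusted p = 8.35e-08). The retinol carrier gene rbp4 was at 8.22, 8.16 and 8.10 against 3.83 and 4.29 (17.1-fold, adjusted p = 3.52e-10). Both were high in all 3 dorsal arrays, not in the pineal-gene array alone.

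The retinol uptake receptor gene stra6 was 6.30-fold higher in the dorsal SVZ (adjusted p = 9.64e-06) and the retinoic acid synthase gene aldh1a2 2.52-fold (adjusted p = 0.00912). The retinoic acid receptor gene raraa was 2.76-fold higher (adjusted p = 0.0107). The call of aldh1a2 was lost without medial replicate 1 (adjusted p = 0.27) or dorsal SVZ replicate 1 (adjusted p = 0.0531), and that of raraa without medial replicate 2 (adjusted p = 0.354). Without the array that held pineal genes, rpe65a differed by -5.01, stra6 by -2.43 and rbp4 by -4.1, and the list again had 5 genes called.

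Patterning signals were called on both sides. Among 121 genes of patterning signals, 6 were higher in the dorsal SVZ, 4 were higher in the medial zone and 111 did not pass. The called share was 8.26%, against 4.15% of all genes. The dorsal genes included frzb (5.88 ± 0.51 against 3.14 ± 0.21, SD, n = 3 and 2, adjusted p = 8.27e-07), sfrp1b (log2 difference -1.77, adjusted p = 0.00301) and sfrp5 (-0.99, adjusted p = 0.00242), all of the secreted frizzled-related family of Wnt antagonists. The Dickkopf-family gene dkk3b and the Wnt ligand gene wnt3a were also among the 6. The secreted Wnt antagonist genes sfrp1a (-0.17), sfrp2 (-0.32) and wif1 (0.16) did not pass. On the medial side were the ligand gene shha, at 4.94 and 4.89 against 3.07, 3.36 and 3.15 (3.29-fold, adjusted p = 4.87e-04), and gli3, a transcription factor of the hedgehog pathway (2.74-fold, adjusted p = 0.00140). Without medial replicate 1 the calls of sfrp1b (adjusted p = 0.06), sfrp5 (0.0718) and gli3 (0.0942) were lost, whereas frzb and shha kept theirs without each array in turn. Without that array, 1 gene of the list was called dorsally and 2 medially.

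Because the layer dissected lies at a surface, markers of neighbouring cells were listed. Of 53 genes of motile cilia, ependyma and choroid plexus, 7 were higher in the dorsal SVZ and 0 in the medial zone. The called share was 13.2%, against 4.15% of all genes, and 46 did not pass (median -0.31). Without either medial array 3 were called, and 4 or 5 without a dorsal SVZ array. The mean level of the list was 4.08 to 4.25 in the dorsal SVZ arrays, 3.64 to 3.84 in the medial arrays and 3.46 to 3.48 in the parenchyma. The called members included igfbp2a, given above, otx2b, given below, and clu, the gene of a secreted chaperone, at 10.7, 10.7 and 10.4 against 7.75 and 8.29 (5.91-fold, adjusted p = 6.04e-08). The cilium assembly gene dnaaf1 (1.71-fold, adjusted p = 0.0228) and the axonemal dynein gene dnah5 (1.94-fold, adjusted p = 0.0259) were also called. dnaaf1 lost its call without 4 of the 5 arrays (adjusted p up to 0.158) and dnah5 without 3 (up to 0.173).

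The choroid plexus marker gene sostdc1a was under the table median in both zones, with means of 2.81 medially and 2.79 dorsally. The potassium channel gene kcnj13 did not pass, at 5.53 and 5.40, nor did the cilia master gene foxj1a, at 4.19 and 4.85. The part of ciliated or choroidal cells in the dorsal SVZ genes was not tested.

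Vascular and meningeal markers were called on both sides. Of 44 endothelial and mural genes, 3 were higher in the dorsal SVZ and 1 in the medial zone (9.09%, against 4.15% of all genes). Without medial replicate 2, 1 of them was called. The largest was plvapa, which encodes a protein of fenestrated capillaries, at 4.88, 6.15 and 4.96 dorsally and 2.58 and 2.62 medially (6.62-fold, adjusted p = 8.60e-05). The endothelial receptor gene kdrl was at a mean of 5.35 medially and 5.42 dorsally (adjusted p = 0.963). The list's mean level overlapped, 4.19 to 4.47 medially and 4.39 to 4.51 dorsally.

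Of 73 genes of meninges and matrix, 6 were higher in the dorsal SVZ and 3 in the medial zone (12.3% called). Without medial replicate 1 these counts were 2 and 1. The metalloproteinase inhibitor gene timp2b stood out at 7.75, 8.43 and 9.06 dorsally, 5.66 and 4.80 medially (9.07-fold, adjusted p = 2.52e-07) and 8.85 and 9.09 in the parenchyma. Of the perineuronal matrix, the link protein gene hapln1a was higher in the medial zone (3.87-fold, adjusted p = 0.00238). Mean list levels were 4.04 to 4.17 medially and 4.23 to 4.38 dorsally, and the part of vascular or meningeal cells in the zone differences was not tested.

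The medial zone was marked by forebrain transcription factors and neuropeptides. Genes of the dlx family and of GABA synthesis and transport, the known signature of the subpallium, were higher in the medial zone at 9 of 16 measured members and at 0 in the dorsal SVZ (median 2.63). The called share was 56.25%, against 4.15% of all genes. For scale, dlx2a was at 9.83 and 9.46 medially and at 4.87, 3.87 and 4.13 dorsally, 41.0-fold apart. The list was chosen with earlier results of these data known, so dlx2a is no independent check of the medial zone's label. Beyond the dlx and GABA genes, 19 of 46 subpallial transcription factors were higher in the medial zone and 2 in the dorsal SVZ (45.65% called). The other 25 did not pass, and the list median was 0.79. Between 14 and 16 were called medially without any 1 of the arrays, 16 of them without the pineal-gene array.

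The homeobox gene six3a, which patterns the anterior forebrain, was at 8.18 and 7.05 in the medial zone and at 3.37, 2.69 and 2.58 in the dorsal SVZ (26.6-fold, adjusted p = 5.11e-06). Its paralogue six3b followed at 8.38 and 7.44 against 3.87, 3.13 and 4.08 (18.5-fold, adjusted p = 4.63e-05). Both were near the table median in the dorsal SVZ, and medial replicate 1 was above replicate 2 in both.

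The factor gene meis2a, expressed in striatal projection neurons in mouse, was at 9.29 and 8.94 against 4.81, 4.53 and 4.58 (22.2-fold, adjusted p = 3.51e-06). The gene lhx6a, which in mouse marks interneurons of the medial ganglionic eminence, was at 8.19 and 7.16 against 3.62, 4.21 and 3.68 (14.3-fold, adjusted p = 2.14e-07). Its neighbours in that lineage, nkx2.1 and lhx8a, were higher medially by 2.27 and 2.36 on the log2 scale. Factors known from the mouse striatum were on the same side, where isl1a was 6.98-fold higher, foxp2 5.88-fold, sp9 9.38-fold and pbx3b 8.36-fold, with adjusted p from 8.27e-08 to 1.99e-06.

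Paralogues did not always move together. The log2 difference was 3.06 for pbx3b and -1.36 for pbx3a, and 1.01 for foxp1b and -1.12 for foxp1a, and all 4 passed the test. The a copies were the 2 subpallial factors called higher in the dorsal SVZ. foxp1a lost its call without each of the 5 arrays in turn (adjusted p up to 0.179), foxp1b without 3 of them (up to 0.234) and pbx3a without 1 (0.162).

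Pallial factors were split between the zones. Of 69 measured, 9 were higher in the medial zone and 8 in the dorsal SVZ (24.6% called, against 4.15% of all genes). The other 52 did not pass, and the list median was -0.14. The T-box gene eomesa (Tbr2), of glutamatergic progenitors and neurons, was at 8.39, 8.02 and 8.10 in the dorsal SVZ and 4.72 and 6.51 in the medial zone (5.85-fold, adjusted p = 0.00191). The call was lost without medial replicate 1 (adjusted p = 0.138), where the remaining array was the higher one. The number of dorsal calls on the list fell to 1 without that array, and it was 7 to 9 without any other.

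Other pallial genes on the dorsal side were tbr1a, a copy of the T-box factor of early glutamatergic neurons (-1.79, adjusted p = 0.00705), the patterning gene dmrta2 (-1.58, adjusted p = 0.0147) and the proneural gene neurod1 (-0.85, adjusted p = 0.0309). The head gap gene otx2b was at 5.28, 6.25 and 5.32 dorsally and at 3.02 and 2.91 medially (6.29-fold, adjusted p = 3.71e-05). tbr1a lost its call without 1 array (adjusted p = 0.197) and dmrta2 without 3 (up to 0.15). neurod1 lost its call without medial replicate 1 (adjusted p = 0.382), dorsal SVZ replicate 2 (0.084) or dorsal SVZ replicate 3 (0.121). The other T-box copy, tbr1b, was at 7.82 and 7.91 medially and at 8.66, 8.58 and 8.80 dorsally, without overlap, and did not pass (adjusted p = 0.219). The pallial homeobox gene emx3 overlapped, at 7.10 and 7.90 against 7.64, 7.62 and 7.97.

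The pallial-list genes on the medial side were mostly zinc finger factors. zic1, of the dorsal midline and septum, was at 9.73 and 7.93 against 6.07, 5.34 and 5.56 (9.03-fold, adjusted p = 1.67e-05), and zic4 was 4.79-fold higher (adjusted p = 9.45e-04). The bcl11 genes, whose mouse counterparts act in striatal as well as cortical projection neurons, followed with bcl11aa 5.26-fold (adjusted p = 2.69e-07) and bcl11ba 3.39-fold higher (adjusted p = 0.00113). Without medial replicate 1, zic4 (adjusted p = 0.0838) and bcl11ba (0.0703) were no longer called. emx1 was at 3.52 and 5.24 in the medial zone and at 2.95, 3.48 and 2.80 dorsally, and did not pass (adjusted p = 0.176).

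**Figure D2:**
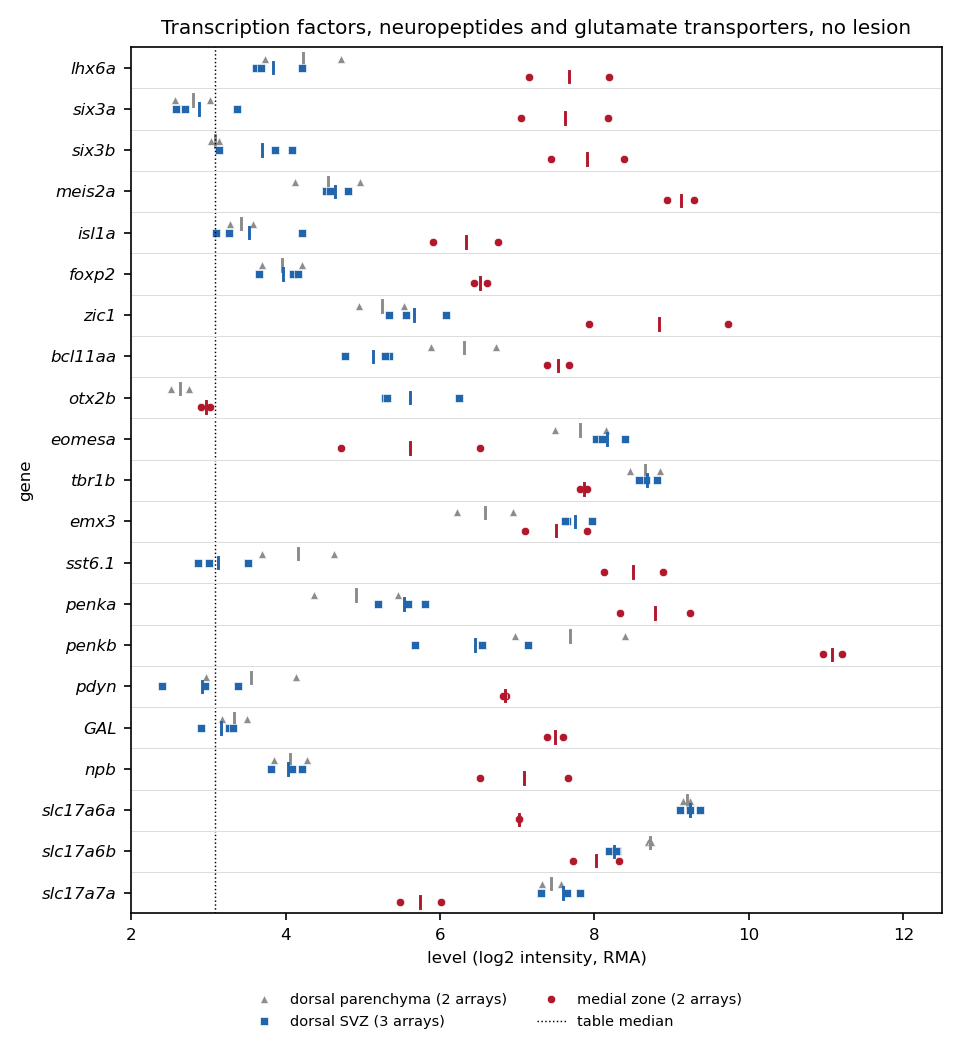
Levels of transcription factor, neuropeptide and vesicular glutamate transporter genes on the log2 intensity scale, for each unlesioned array of the 3 regions, with bars at group means and a dotted line at the table median. The medial circles lie to the right for six3a, lhx6a and the peptide genes, the dorsal SVZ squares lie to the right for eomesa, otx2b, slc17a6a and slc17a7a, and emx3 and slc17a6b overlap.

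Called neuropeptide genes were nearly all on the medial side. Of 75 genes on the list, 14 were higher in the medial zone and 1 in the dorsal SVZ (20% called, against 4.15% of all genes). The other 60 did not pass, and the list median was 0.20. One of the 14, calb1, encodes a calcium-binding protein of neurons and not a peptide. A somatostatin-family gene, sst6.1, gave the largest medial difference among the named genes outside the dlx and GABA list. Its levels were 8.12 and 8.89 against 2.86, 3.01 and 3.52 (41.5-fold, adjusted p = 1.89e-04). Opioid precursors were also high: penkb stood at 11.2 and 11.0 against 6.55, 5.67 and 7.14 (24.6-fold, adjusted p = 1.18e-04).

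The related precursor genes penka and pdyn were 9.53-fold and 15-fold higher in the medial zone (adjusted p = 1.34e-04 and 3.69e-04), so that both proenkephalin copies and prodynorphin were on the same side. The galanin gene GAL was at 7.60 and 7.38 against 3.27, 2.90 and 3.32 (20.1-fold, adjusted p = 4.89e-05). The neuropeptide B gene npb was 8.31-fold higher (adjusted p = 7.34e-05). The natriuretic peptide-like gene nppal, which is not on the list, was at 7.18 and 7.09 against 2.47, 2.37 and 2.73 (24.5-fold, adjusted p = 4.27e-06). Between 9 and 15 list genes were called medially without any 1 of the arrays, the lowest without medial replicate 1.

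Of 5 vesicular glutamate transporter genes measured, 2 were higher in the dorsal SVZ and 3 did not pass. The vesicular glutamate transporter gene slc17a6a was at 9.23, 9.11 and 9.37 dorsally and at 7.02 and 7.03 medially (4.64-fold, adjusted p = 3.37e-04), and slc17a7a was 3.60-fold higher (adjusted p = 0.0120). The second vesicular copy slc17a6b was at 8.19, 8.29 and 8.28 against 8.31 and 7.73, overlapping, with an adjusted p of 0.823. slc17a7b and slc17a8 had adjusted p of 0.469 and 0.908. The call of slc17a7a was lost without medial replicate 2 (adjusted p = 0.165).

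Transmitter receptor genes were called on both sides. Of 63, 10 were higher in the medial zone and 5 in the dorsal SVZ (23.8% called, against 4.15% of all genes). Medial calls fell to 5 without medial replicate 1, and dorsal calls to 1 without medial replicate 2. The GABA-A receptor subunit gene gabra3 was at 8.72 and 8.25 against 5.36, 3.7 and 4.57 (15.4-fold, adjusted p = 4.2e-07), and gabrg3 and gabrb1 were 5.88-fold and 4.53-fold higher medially. The subunit gene gabra5 was at 9.07, 9.33 and 9.11 dorsally and 7.38 and 7.41 medially (3.42-fold, adjusted p = 1.71e-06). Called subunits of the same receptor family were thus high in different zones.

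Radial glial genes were split between the zones. Of 66 genes on the list, 13 were called (19.7%, against 4.15% of all genes), 9 higher medially and 4 higher dorsally, and 53 did not pass (median 0.01). Without medial replicate 1, 3 were called medially and 2 dorsally. The mean level of the list was 7.16 to 7.31 in the medial arrays, 7.08 to 7.26 in the dorsal SVZ arrays and 5.66 to 5.8 in the parenchyma. The calcium-binding protein gene s100b was at 10.3 and 10.5 against 10.6, 10.2 and 10.3 (adjusted p = 0.984), and the glutamine synthetase gene glula at 10.2 and 10.4 against 10.8, 10.6 and 10.4 (adjusted p = 0.637). Both lay above the parenchyma, where s100b was at 8.14 and 7.35 and glula at 9.04 and 8.47.

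The gene of the reporter promoter, gfap, was at 7.08 and 7.88 in the medial zone, 7.08, 7.5 and 7.31 in the dorsal SVZ and 8.09 and 7.18 in the parenchyma. On this probe set it overlapped across the 3 regions and did not mark the ventricular layers. The log2 difference between the zones was 0.18 ± 0.39 (SE).

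Among radial glial genes that did differ, brain aromatase cyp19a1b, the estrogen-producing enzyme gene of fish radial glia, was at 11.1 and 10.9 medially and at 9.44, 9.62 and 8.99 dorsally (3.14-fold, adjusted p = 8.26e-04). The parenchyma was at 10.9 and 10.5. The transcriptional inhibitor gene id3 was at 8.19 and 8.07 against 6.66, 6.53 and 6.84 (2.73-fold, adjusted p = 0.00121), and the RNA-binding protein gene msi2b was 2.74-fold higher medially (adjusted p = 1.90e-04). On the dorsal side were fabp7b, described above, and metrnla (2.55-fold, adjusted p = 3.55e-04), a meteorin-like secreted protein gene. The radial glial marker gene vim and the list gene plpp3 were also called higher dorsally.

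**Figure D3:**
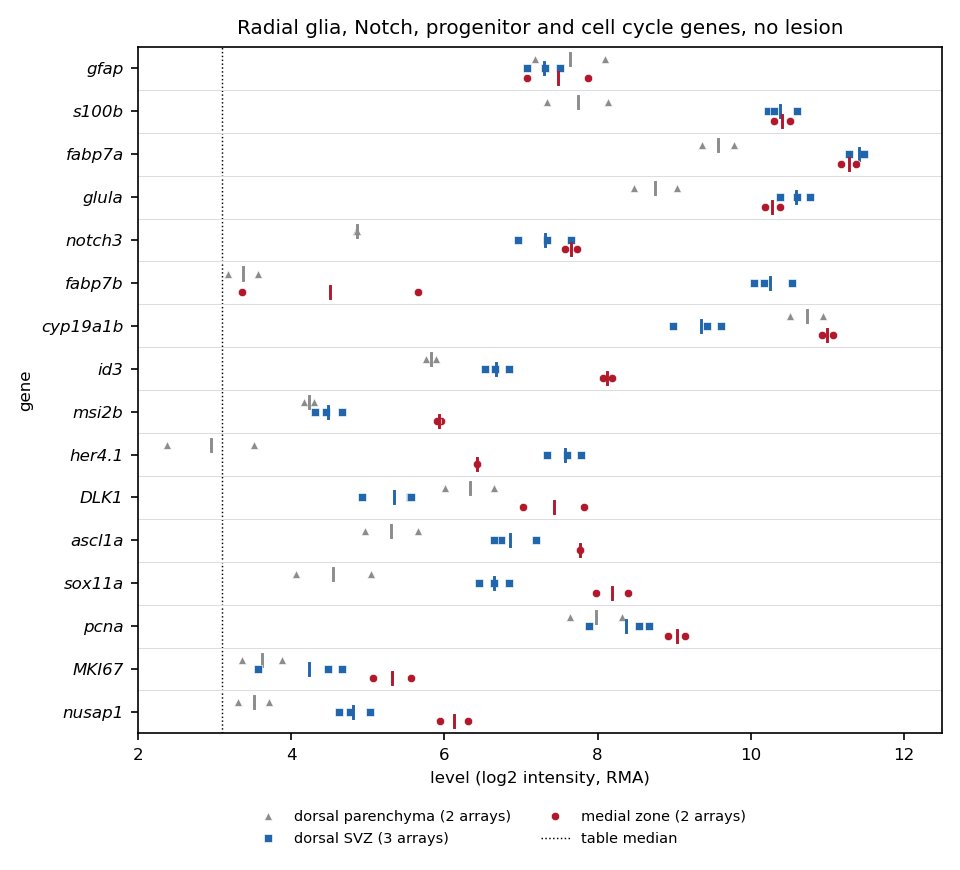
Levels of radial glial, Notch, progenitor and cell cycle genes on the log2 intensity scale, for each unlesioned array of the 3 regions, with bars at group means and a dotted line at the table median. The zones overlap at gfap, s100b and fabp7a, while fabp7b and her4.1 lie higher in the dorsal SVZ and cyp19a1b, id3 and sox11a in the medial zone.

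Notch pathway genes, which hold radial glia in quiescence, differed at 3 of 54 measured, a share of 5.56% near that of all genes. The target gene her4.1, a hairy-related repressor of neurogenesis in fish radial glia, was at 7.78, 7.59 and 7.34 in the dorsal SVZ and 6.43 and 6.43 in the medial zone (2.21-fold, adjusted p = 0.00367). The receptor gene notch3 was at 7.57 and 7.74 medially and 7.65, 6.96 and 7.34 dorsally (adjusted p = 0.716). The non-canonical ligand gene DLK1 was 4.23-fold higher medially (adjusted p = 0.00473) and her2 2.17-fold higher dorsally (adjusted p = 0.0316). Both calls were lost without medial replicate 1 (adjusted p = 0.131 and 0.446), and that of her2 also without dorsal SVZ replicate 2 (0.185).

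Called genes of committed progenitors and newborn neurons were mostly on the medial side. Of 54, 10 were higher medially, 3 were higher dorsally and 41 did not pass (24.1% called, against 4.15% of all genes, median 0.15). The dorsal genes were eomesa, neurod1 and rnd3b. The newborn-neuron factor gene sox11a was at 8.39 and 7.98 against 6.64, 6.84 and 6.45 (2.92-fold, adjusted p = 0.00100), and its relative sox4b was 2.42-fold higher (adjusted p = 0.00251). Their paralogues sox11b and sox4a differed by 0.05 and 0.07 and did not pass (adjusted p = 0.981 and 0.946). The proneural gene ascl1a was at 7.77 in both medial arrays and at 6.74, 7.19 and 6.64 dorsally, without overlap, and did not pass (adjusted p = 0.0855). Without medial replicate 1, 2 genes of the list were called medially and sox4b was not among those called (adjusted p = 0.0603). The onecut1 difference of 1.68 was not shared by its second probe set, at -0.01.

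Proliferation genes showed a small common lean that mostly did not pass the test. Of 46 cell cycle genes, 41 had a higher mean in the medial zone, against 10202 of all 19260. The 2 called, 4.35% and near the 4.15% of all genes, were nusap1 of the mitotic spindle (2.5-fold, adjusted p = 0.0180) and bub1bb of the spindle checkpoint (2.36-fold, adjusted p = 0.0209). The median difference was 0.56, against 0.02 over all genes. The replication factor gene pcna was at 8.92 and 9.14 against 8.67, 7.89 and 8.55 (adjusted p = 0.228), and MKI67 at 5.57 and 5.07 against 4.66, 3.57 and 4.48 (adjusted p = 0.0947). nusap1 and bub1bb each lost their call without 4 of the 5 arrays (highest adjusted p = 0.206 and 0.151, respectively), and 0 genes of the list were called without any one of these 4.

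Axon guidance genes gave 26 calls of 127 (20.5%, against 4.15% of all genes). The calls were 17 in the medial zone and 9 in the dorsal SVZ, and the list median was 0.17. The ephrin receptor gene epha8 was at 6.73 and 6.66 medially and at 4.71, 4.48 and 4.74 dorsally (4.15-fold, adjusted p = 1.01e-06). Of the other Eph receptors, epha4a (log2 difference -0.99), epha6 (-1.54) and ephb6 (-1.31) were higher in the dorsal SVZ, with adjusted p from 0.0191 to 0.0225, and lost their calls without 3, 3 and 5 of the 5 arrays in turn. Ephrin ligands of the A1 type were dorsal too: efna1b was at 8.90, 8.84 and 8.76 dorsally and 6.0 and 6.54 medially (5.88-fold, adjusted p = 1.01e-04), and efna1a was 2.54-fold higher dorsally (adjusted p = 3.05e-04). The class B ligand genes efnb2a, efnb3a and efnb3b were higher medially, by 1.5, 1.49 and 1.44, and efnb2a and efnb3b lost their calls without 1 array (adjusted p = 0.0838 and 0.0807).

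The attractant gene ntn1b was at 5.90 and 6.02 medially and 4.29, 4.1 and 4.2 dorsally (3.40-fold, adjusted p = 5.58e-05), and its paralogue ntn1a differed by 1.54, a call lost without 1 array (adjusted p = 0.0807). Class 3 semaphorins, secreted repellents, were on the dorsal side where called, with sema3h at 7.08, 7.2 and 7.63 against 4.95 and 5.8 (3.80-fold, adjusted p = 9.06e-06). Repellents were not all dorsal, since slit1a (log2 difference 1.03, adjusted p = 0.0271) and slit2 were called higher medially. Their relative slit1b (0.51) did not pass. Medial calls on this list fell to 5 without medial replicate 1 and numbered 8 to 12 without any other array.

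Markers of mature neurons gave 4 medial and 6 dorsal calls of 64 (15.6%, against 4.15% of all genes, median -0.04). Medial calls fell to 1 without medial replicate 1, dorsal SVZ replicate 1 or dorsal SVZ replicate 2, and dorsal calls to 4 without medial replicate 2. The synaptic adhesion gene nrxn3a was at 8.17 and 7.34 against 4.38, 3.36 and 3.31 (16.8-fold, adjusted p = 5.55e-08). The calcium/calmodulin kinase gene camk2b2 was at 9.45, 9.13 and 9.55 dorsally and 7.39 and 7.18 medially (4.27-fold, adjusted p = 8.45e-06), and the neurogranin gene nrgna was 2.41-fold higher dorsally (adjusted p = 4.68e-05). The list's mean level overlapped between zones, 7.38 to 7.70 medially and 7.5 to 7.73 dorsally.

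The signalling regulator gene rgs4 had the second largest medial difference among the named genes outside the dlx and GABA list. Its levels were 9.53 and 8.08 against 3.60, 4.54 and 3.42 (31.0-fold, adjusted p = 5.71e-08). Of 64 potassium and other channel genes, 4 were higher medially and 2 dorsally (9.38% called, against 4.15% of all genes). For 50 genes of transmitter identity the counts were 4 and 2 (12% called). Channel calls fell to 1 medially without medial replicate 1 or dorsal SVZ replicate 1, and to 0 dorsally without medial replicate 2 or dorsal SVZ replicate 3. A potassium channel gene of A-type currents, kcnd3, was 4.98-fold higher medially (adjusted p = 3.28e-04). Factors used as markers of other brain regions were also found medially, with lhx1a at 6.84 and 5.77 against 3.12, 3.09 and 3.29 (8.79-fold, adjusted p = 1.12e-05) and nr4a2a 6.46-fold higher (adjusted p = 1.41e-04). Their list had 10.1% called, against 4.15% of all genes. On that list of 69 genes, 5 were higher medially and 2 dorsally, and 4 and 0 without medial replicate 1. gbx1 was among the 5 at 2.14, while its second probe set gave 0.20.

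Myelin genes did not all move with mbpa. This myelin basic protein gene was at 7.99 and 8.65 medially, 4.4, 4.05 and 3.55 dorsally (log2 difference 4.32, adjusted p = 8.07e-06) and 9.02 and 8.51 in the parenchyma. Its paralogue mbpb had means of 5.0 and 6.17 (log2 difference -1.18, adjusted p = 0.108), and the myelin glycoprotein gene mag 7.68 and 8.55 (adjusted p = 0.199). Of 24 oligodendrocyte genes, 2 were called medially (8.33%, against 4.15% of all genes), mbpa and pdgfra. By mean alone, 15 of the 24 were higher medially and 9 dorsally. pdgfra lost its call without medial replicate 1 (adjusted p = 0.395), dorsal SVZ replicate 1 (0.096) or dorsal SVZ replicate 2 (0.0987). The list's mean level did not overlap, 4.83 to 4.96 medially and 4.53 to 4.59 dorsally. The part of these cells in the zone differences was not tested.

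Few blood and immune genes were called, 3.03% of the microglia and macrophage list and 0% of the erythrocyte and leukocyte list, against 4.15% of all genes. Of 33 genes of microglia and macrophages, 1 was called, the growth factor gene csf1b (3.37-fold higher dorsally, adjusted p = 0.00325, lost without medial replicate 1 at 0.0559). The macrophage gene mpeg1.1 was at a mean of 4.27 and 4.55. The mean level of the microglia and macrophage list did not overlap, 4.42 to 4.62 medially and 4.66 to 4.88 dorsally. Of 25 genes of erythrocytes and leukocytes, 0 were called, and 13 had means under the table median in both zones. Their mean level was 3.19 to 3.37 medially and 3.38 to 3.45 dorsally. The part of these cells in the zone differences was not tested. Lists of immediate early and stress genes (3 of 52), circadian and glucocorticoid genes (3 of 39), glycolysis and hypoxia (2 of 46) and cholesterol synthesis (3 of 31) had 5.77%, 7.69%, 4.35% and 9.68% called. Leaving out 1 array gave as few as 1 call for the circadian list and 0 for glycolysis and for cholesterol synthesis. The sterol synthesis gene hmgcs1 was on the dorsal side (2.83-fold, adjusted p = 0.0170, up to 0.216 without 1 array). The small heat shock protein gene hspb1, of the stress list, was at 7.59, 7.10 and 7.38 dorsally against 4.15 and 5.08 medially (6.67-fold, adjusted p = 1.06e-04).

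**Figure D4:**
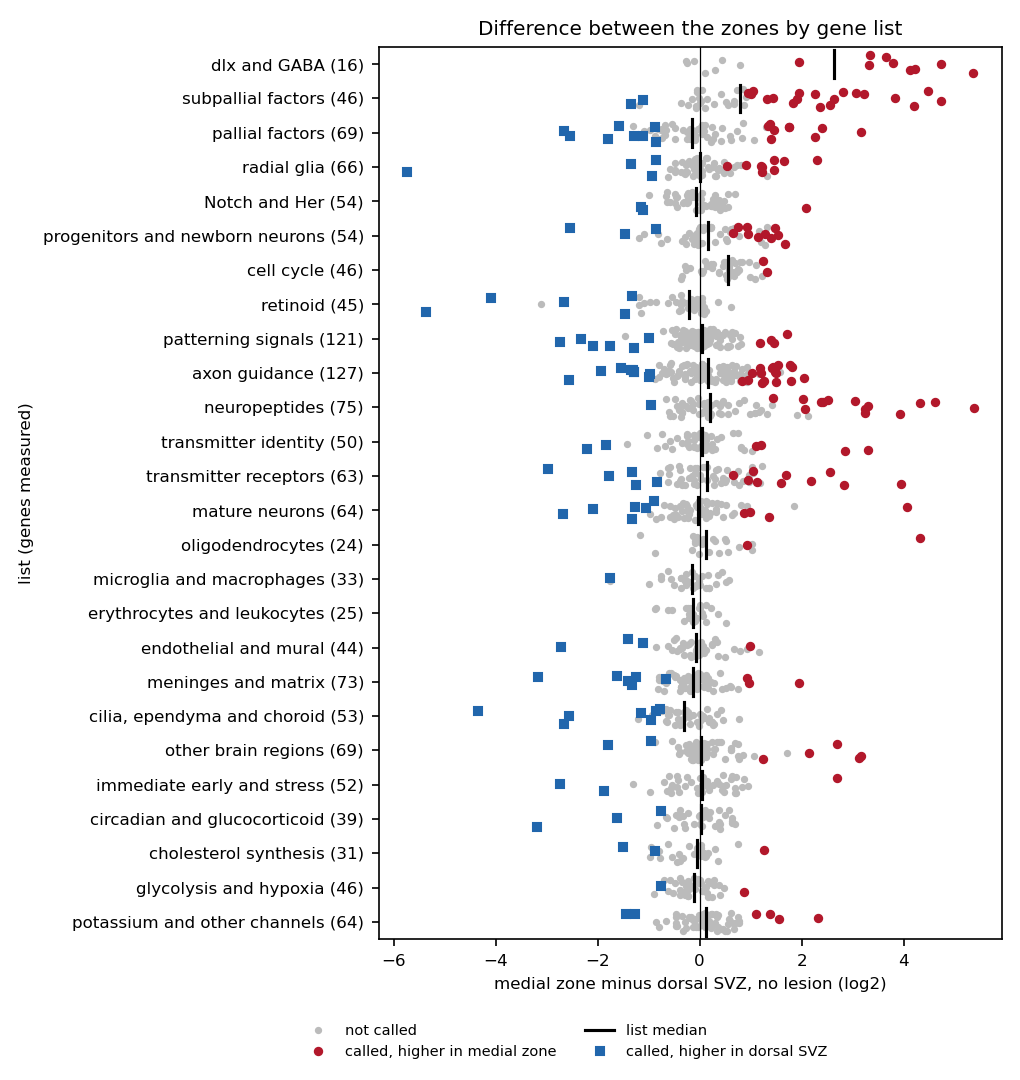
Difference between the unlesioned zones on the log2 scale, medial zone minus dorsal SVZ, for every measured member of 26 gene lists, with the number measured in brackets, called genes in colour and a black bar at each list's median. Subpallial factors and neuropeptides lie mainly to the right of 0, called retinoid and cilia, ependyma and choroid genes lie to the left, and pallial factors and radial glia lie on both sides.

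The dorsal parenchyma was set beside both zones as a level without a test. Of the 456 genes higher in the medial zone, the parenchyma mean was between the zones for 269, below both for 175 and above both for 12, and it was nearer the dorsal SVZ for 381. Of the 344 genes higher in the dorsal SVZ, it was between for 182, below both for 66 and above both for 96, and it was nearer the medial zone for 167.

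The zone difference was also measured in other arrays, 4 medial and 3 dorsal SVZ arrays at day 2 after lesion and 3 of each at day 7. The 3 comparisons came from 1 fit that pools each gene's variance, so their calls are not independent, and a dorsal SVZ array at day 7 held 25 of the 39 genes that set an unlesioned one apart. At day 2, 1740 genes (9.03%) were called, 894 higher in the medial zone (4.64%) and 846 in the dorsal SVZ (4.39%). They included 332 of the 456 medial genes, 72.8% of these and 37.1% of the medial genes at day 2, and 300 of the 344 dorsal genes, 87.2% and 35.5%. At day 7, 1300 genes (6.75%) were called, 757 higher in the medial zone (3.93%) and 543 in the dorsal SVZ (2.82%), including 337 of the medial genes (73.9% and 44.5%) and 266 of the dorsal genes (77.3% and 49.0%).

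In all 3 comparisons 542 genes were called, 291 medial and 251 dorsal. The difference had the opposite sign at day 2 for 7 and at day 7 for 12 of the 800, of which 0 were called. cndp1 differed by -6.03 without a lesion, -6.0 at day 2 and -5.90 at day 7, and slc13a1 by -5.84, -7.01 and -6.86. On the medial side, rgs4 differed by 4.95, 4.93 and 5.45. GAL differed by 4.33, 4.62 and 5.28, and six3a by 4.74, 4.44 and 4.73.

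A change of the zone difference with the lesion was tested directly and called for 0 genes at day 2 and 0 at day 7 (limma), with 606 and 563 genes at an unadjusted p under 0.05. Some values moved without passing. rpe65a differed by -5.37 without a lesion, -3.19 at day 2 and -4.16 at day 7, sst6.1 by 5.38, 3.01 and 3.71, and her4.1 by -1.14, -1.54 and -0.26. For hmgcs1 the values were -1.50, 0.26 and -0.24. The adjusted p of each of these changes was 1. Leaving out medial replicate 1 without lesion gave 10 calls at day 2 and 6 at day 7. In the cell cycle list, 27 of 46 genes were called higher in the medial zone at day 2 and 5 at day 7, against 4.64% and 3.93% of all genes. The list's median difference was 0.56 without a lesion, 0.86 at day 2 and 0.34 at day 7. The medial zone had 4 arrays at day 2 and 2 without a lesion, so the counts are not a measure of change. In the test of change, 0 of these genes were called.

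**Figure D5:**
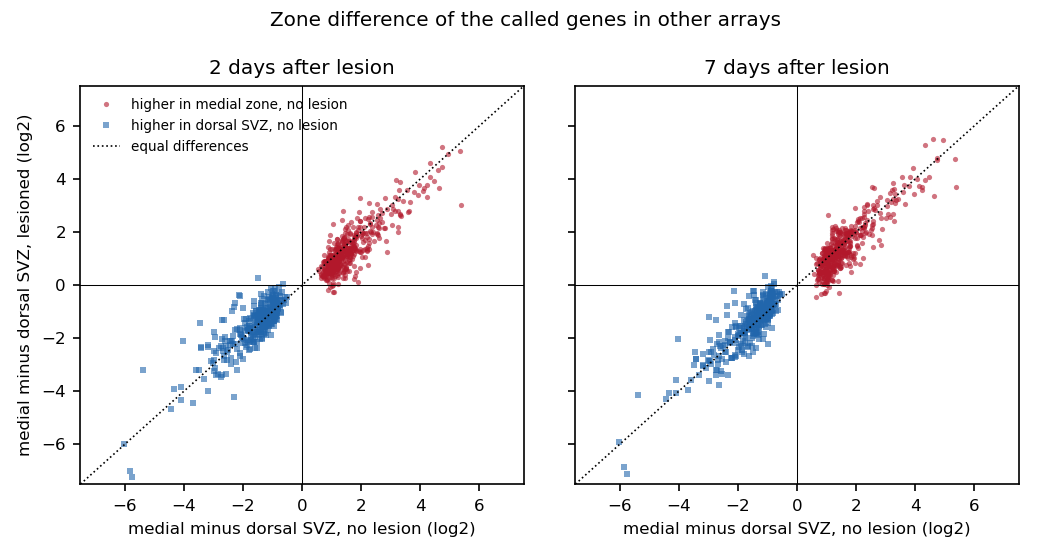
Medial zone minus dorsal SVZ on the log2 scale for the 800 genes called without a lesion, unlesioned arrays on the horizontal axis and lesioned arrays on the vertical axis, at day 2 (left) and day 7 (right), with a dotted line where both are equal. Most points lie in the quadrants of equal sign, with 7 genes of opposite sign at day 2 and 12 at day 7.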

How the data were processed

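Probe set values were deposited as log2 intensities, summarised by RMA in Affymetrix Expression Console 1.2 per the submitters' processing notes. Scanner files were not used here. Of 75212 probe sets, 20806 carried 1 gene symbol in the platform annotation, 855 several and 53551 none. Entrez identifiers were found in a current gene table for 20323, and 1 symbol changed. Each of 19260 genes was read from 1 probe set, its brightest on average across the 26 arrays. Several were present for 1365 genes.

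limma 3.58.1 (R 4.3.3) fitted 1 mean for each of 9 groups, and contrasts were moderated with eBayes. In each of 5 comparisons, p-values were adjusted over 19260 genes by Benjamini-Hochberg, and a gene was called when its adjusted p was under 0.05. Every adjusted p given comes from limma. The fit was tested on simulated data. Tables were made with pandas 2.3.3 and numpy 2.4.6 (python 3.11.15), and figures with matplotlib 3.10.9.

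The comparison, the 26 gene lists and the tests were chosen with earlier results of these data known. Named genes were the 15 largest differences in each direction outside the dlx and GABA list, taken from called genes without overlap between the zones, with a group mean above the table median and a symbol that is no clone name. Up to 5 called members of each list with the smallest adjusted p, 20 genes taken in any case (2 of them, gsx2 and foxg1a, not among the named probe sets) and the 3 largest in each direction called at all times were added. Other list members named were chosen after their values were seen, as were the pineal genes.

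Replicate numbers were checked as pairs between the zones. Deviations of same-numbered arrays correlated at 0.13 to 0.20 at day 7, at -0.15 to 0.00 without a lesion and at -0.06 to 0.02 at day 2. Differently numbered arrays of the 2 zones lay at -0.17 to -0.02 at day 7, but reached 0.16 without a lesion and 0.14 at day 2. The labels do not say whether arrays share fish, so a pairing was not established. Alternatives were other sample sets, array weights, other probe set rules and normalizations, replicate blocks, another prior and leaving out each array. Leaving out both arrays with pineal genes, and a block for the day 7 arrays alone, were added after seeing the data.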

Additional observations from a re-analysis of the deposited data

Results flagged for a closer look

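Among the genes named in the report, 5 had 1 array far from the others of its group by Dixon's criterion, and all 5 lay in the medial zone at day 2, the one group here with 4 arrays. The ratio of the gap to the range was 0.869 for sfrp1b, whose levels were 3.86, 3.86, 3.51 and 3.91. It was 0.87 for efna1b (5.20, 5.26, 4.28 and 5.13), 0.835 for loxl1 (4.73, 4.75, 3.95 and 4.89) and 0.838 for tbr1b (7.59, 7.35, 6.11 and 7.46). In these 4 genes replicate 3 was the low array. For nrgna the ratio was 0.837 (9.68, 9.70, 9.76 and 10.2), with replicate 4 high. Chance flags about 1 in 20 groups. With 130 genes named, 5 flags in this group are no more than that rate gives. The rate takes genes as independent, however, and 4 of the flags shared 1 low array. Replicate 3 had the lowest array weight of its group (0.69), and an effect of that array was not tested.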

How the results depend on the processing

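The count of genes called without a lesion ranged from 419 to 642 when 1 array was left out (218 to 359 higher in the medial zone and 188 to 283 in the dorsal SVZ). With both arrays that held pineal genes left out, 512 were called, 267 of them higher in the medial zone. At day 2 the count ranged from 1131 to 1515 with 1 array left out, with 548 to 849 on the medial side, and at day 7 from 858 to 1048, with 477 to 642. The lowest counts came without dorsal SVZ replicate 2 at day 2 and replicate 3 at day 7. Genes with a changed zone difference numbered 0 to 10 at day 2 (0 to 2 and 0 to 8 by direction) and 0 to 6 at day 7 (0 to 2 and 0 to 4). Other alternatives gave 607 to 900 genes without a lesion, within 1.5 times of 800, the lowest with the unlesioned arrays of the 3 regions alone. With the replicate number as a block the count was 713 (388 and 325) without a lesion, 1436 at day 2, 1252 at day 7 and 0 for both changes. With the replicate number as a block for the day 7 arrays alone, the count at day 7 was 1303, and the block moved no count by over 1.5 times. On the second probe set, 5 named genes kept their call and 2 lost it. One of these was onecut1, whose second probe set gave -0.009667, near no difference, and the cause was not tested. Of 117 named genes called without a lesion, 82 kept the call without medial replicate 1 and 100 to 106 without another array. In a fit of the 5 unlesioned zone arrays alone, 99 of the 117 kept it. Signal near the table median limits what can be said of low genes.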

Other observations

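Several gene families, chosen after their values were seen, add to the picture of the unlesioned zones. Of 102 peptide receptor genes, 17 were higher in the medial zone and 2 in the dorsal SVZ (18.6% called, against 4.15% of all genes). The neuropeptide B/W receptor gene npbwr2b was at 7.88 ± 0.87 (SD, n = 2) medially and 4.33 ± 0.28 (SD, n = 3) dorsally, and its ligand gene npb was on the same side. The relaxin-family receptor gene rxfp3.2b differed by 2.36. Of 7 receptor genes of the GDNF family, which bind neurotrophic ligands, 5 were higher medially (71.4% called), from gfra2a at 1.24 to gfra2b at 2.56. The others, gfra4a (0.02) and gfra4b (0.23), did not pass. Among 5 estrogen genes, brain aromatase and the receptor genes esr1 (0.90) and esr2a (1.34) were higher medially (60% called). The calls of gfra2a, esr1 and esr2a were lost without 4, 2 and 3 of the 5 arrays in turn.

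Among genes known from retinal pigment epithelium and pigment cells, 0 of 19 were called medially. On the dorsal side, 6 were called (31.6%, against 4.15% of all genes). Beside rpe65a, stra6 and otx2b, these were the channel gene best1 (5.86 against 3.23), the opsin-like gene rrh (5.30 against 2.99) and the melanosome gene pmelb (4.72 against 2.61). The pigment enzyme gene tyr did not pass, at 3.24 and 3.36. Without the array that held pineal genes, best1 differed by -2.73, rrh by -2.17 and pmelb by -2.30. Of 396 solute carrier genes, 18 were higher dorsally and 6 medially (6.06% called).

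Among 2470 gene pairs whose symbols differ by a final a or b, 27 were called on the same side and 7 on opposite sides. Paralogues on opposite sides, chosen after their values were seen, included ppp1r14aa and ppp1r14ab, whose proteins inhibit myosin phosphatase. They differed by -2.93 and 2.23 (adjusted p = 0.0113 and 0.0374).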
